A study of Mus musculus with 6 samples.

Results

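The 40 genes described here encode subunits of the dynein motors and the factors that assemble them, out of 54532 genes in the deposited expression table, 22046 of them protein-coding. They were chosen by gene name alone: the protein-coding genes named Dnah, Dnaic, Dnai, Dnal, Dnaaf, Dync or Dynl with a number or letter. Of these, 20 are axonemal dynein subunits, 4 are named dynein assembly factors, and 16 are subunits of the cytoplasmic dyneins or light chains of those families. RNA was sequenced from STRA8+ cells, germ cells in suspension prepared from mouse testis, in 3 libraries of genotype Cre, the controls, and 3 libraries of conditional knockout, here called the knockout. STRA8 is a germ cell protein that is made as spermatogonia differentiate and enter meiosis. The labels give no age, strain or Cre driver and do not name the deleted allele. The study's title names BCAS2 and hnRNPH1, a pair of proteins that act in pre-mRNA splicing. No label tells if a group's libraries are from different animals, and p-values here therefore weigh only library-to-library spread, possibly technical. The extraction protocol in the labels speaks of retinas, whereas each other label names testis or germ cells.

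Dyneins are motors that walk along microtubules. Axonemal dyneins are bolted to the microtubule doublets of cilia and sperm tails as outer and inner arms, and their strokes bend the axoneme. Each arm is built around heavy chains, which carry the motor, with intermediate and light chains at its base. The arms are pre-assembled in the cytoplasm by dedicated assembly factors and chaperones before they enter the tail. Cytoplasmic dynein 1 hauls cargo and positions nuclei and spindles in nearly every cell, and dynein 2 carries material back along the shaft of a growing cilium or flagellum. In the testis, axonemal genes are known to be switched on during meiosis and after it, ahead of the building of the sperm tail.

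Each library held 14532453 to 16963019 reads, as recovered from the deposited values. Bcas2 was at 19.8, 19.3 and 20.5 FPKM in control libraries and 4.78, 4.38 and 5.40 FPKM in knockout libraries, where FPKM is fragments per kilobase of gene and per 1000000 on the deposited scale, and Hnrnph1 was at 63.8 ± 3.26 against 140.1 ± 14.04 FPKM (SD, n = 3). The groups stood far apart as a whole. Of the 16791 genes tested, those averaging 1 FPKM or more, 8462 were lower and 6075 higher in the knockout by limma at an adjusted p under 0.05, that is 50.4% and 36.2%, with a median log2 fold change of -0.41. The deposited scaling lowers knockout values against shares of reads: with FPKM rescaled to equal sums the split was 6084 lower (36.2%) and 9109 higher (54.2%), with reads rescaled 6527 and 8491, and after quantile normalization 6187 and 8745. The median of all genes rose by 1.12, 0.83 and 0.94 on the log2 scale under these 3 scalings, so each dynein gene whose direction turns with the scaling is named as such. Markers of pachytene and diplotene spermatocytes summed to 5616 to 6789 FPKM in control libraries and 51.3 to 73.4 FPKM in knockout libraries, and 10 of 10 were lower. Spermatid markers summed to 18013 to 20963 FPKM in control libraries and 2.27 to 6.31 FPKM in knockout libraries, and 10 of 10 were lower. Spermatogonial markers summed to 72.1 to 114 FPKM in control libraries and 519 to 637 FPKM in knockout libraries, with 9 of 10 higher and 1 lower, and Sertoli cell markers, from the somatic cells that nurse germ cells, to 87.0 to 209 FPKM in control libraries and 397 to 731 FPKM in knockout libraries, with 8 of 8 higher. Markers of meiotic entry summed to 202 to 223 FPKM in control libraries and 398 to 464 FPKM in knockout libraries. Of these, 5 of 7 were higher, Prdm9, Gm4969 and Stra8 among them, and Spo11 and Rec8 were lower. Markers of all germ cells summed to 1287 to 1511 FPKM in control libraries and 500.1 to 620.1 FPKM in knockout libraries, with Mael and Ddx4 lower and Dazl higher, and Ddx4 was not called after quantile normalization. Stra8 itself was at 17.03 ± 5.55 against 133 ± 6.42 FPKM (SD, n = 3). These markers move with every dynein result below, and their part in those results was not tested. In bulk RNA, fewer cells of a type and less RNA per cell cannot be told apart.

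Axonemal dynein transcripts were low throughout the knockout. All 20 axonemal genes had lower values in each knockout library than in any control library. Control above knockout with no overlap held for 51.1% of all genes tested, and knockout above control for 36.9%. Of the 17 axonemal genes that passed the level of 1 FPKM, 17 were lower and 0 higher by limma, although Dnal1 turned to 0.11 with FPKM rescaled and was not called with reads rescaled. Of these 17, 12 averaged under 1 FPKM in the knockout and so passed that level through their control values. The other 3, Dnah5, Dnah9 and Dnah11, were too low in both groups to be tested. The median log2 fold change of the 17 was -4.62, which is -4.21 relative to the median of all genes, and ranged from -7.25 to -0.98. Falls of 4 or more on the log2 scale, which 12.7% of all genes tested showed, were seen in 12 of the 17 axonemal genes, 2 of the 4 assembly factors and 1 of the 16 cytoplasmic genes and light chains. As a percentage of the control mean, the knockout mean of the 20 axonemal genes ran from 0.103% to 47.2%, with a median of 2.71% over the 20 and 2.20% over the 17 tested. The 4 assembly factors were all lower, with a median log2 fold change of -2.95. Of them, 2 were lower and 1 higher with FPKM rescaled and after quantile normalization, and 3 and 1 with reads rescaled. Dnaaf2 averaged under 1 FPKM in the knockout and so passed that level through its control values. Of the 16 cytoplasmic genes and light chains, 12 were lower and 4 higher, with a median of -1.46, but this split became 8 and 6 with FPKM rescaled, 9 and 5 with reads rescaled and 8 and 7 after quantile normalization. Dynlrb2 and Dynlt1a averaged under 1 FPKM in the knockout and so passed that level through their control values. Of all genes tested, 50.4% were called lower and 36.2% higher as deposited, and 36.2% and 54.2% with FPKM rescaled.

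**Figure D1:**
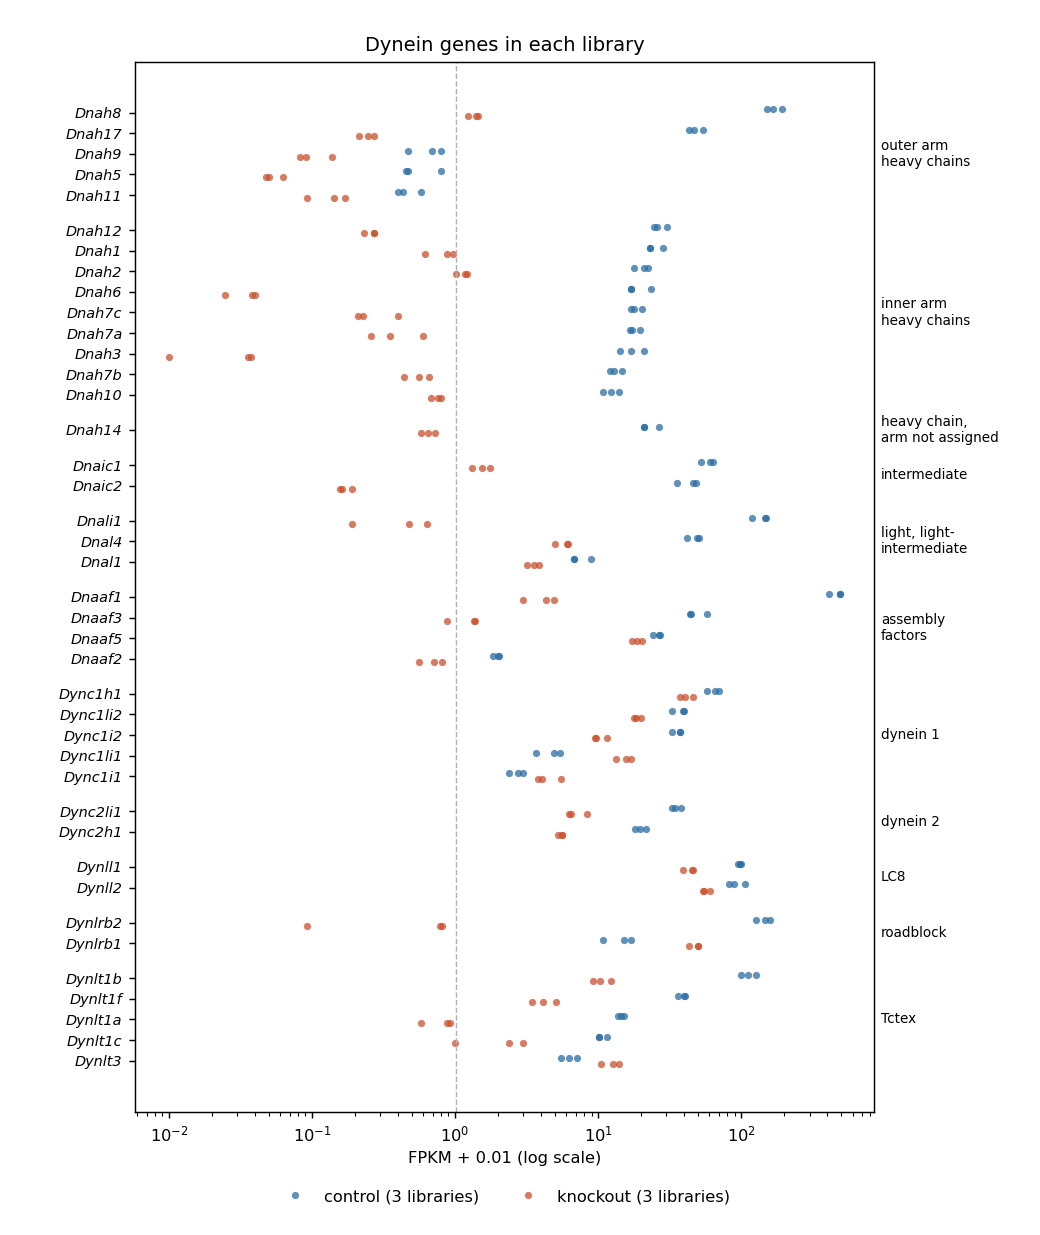
FPKM plus 0.01 (log scale) of the 40 dynein genes in each of the 3 control (blue) and 3 knockout (red) libraries on the deposited scale, grouped by role, with a dashed line at 1 FPKM. Most axonemal genes stand above 10 FPKM in the controls and below 1 FPKM in the knockout, while most cytoplasmic dynein genes stay above 1 FPKM in both groups.

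Within the controls, 1 library held the highest value of most axonemal genes. Of the 20, 16 averaged at least 10 FPKM in the controls and 15 averaged under 1 FPKM in the knockout. Control library 1 was the highest control for 18 of the 20, and control library 3 for the other two, Dnal4 and Dnah11. That library was the highest control for 42.9% of all genes tested, and its FPKM summed to 504846 against 449532 and 462367 in the other controls. With FPKM rescaled to equal sums it was the highest for 14 of the 20 axonemal genes and for 26.4% of all genes tested. Among the 16 cytoplasmic genes and light chains, control library 1 was the highest for 6, library 2 for 4 and library 3 for 6. The coefficient of variation (SD over mean) of the axonemal genes had a median of 12.4% in the controls and 16.7% in the knockout. Its maximum in the knockout, 86.8%, belonged to Dnah3, which rested on 16 reads there.

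Promoter sequences were examined because the axonemal genes fell together. RFX factors, whose members help drive ciliary genes, bind the X-box, a pair of inverted half-sites. RefSeq promoters of GRCm38.p6, 250 bases before to 50 after the gene start, were found for 33 of the 40 genes by symbol, and 26 of these start within 100 bases of the deposited gene start. The X-box, with half-sites 0 to 3 bases apart, was in the promoters of 4 of the 33 (12.1%) and of 1.75% of 27025 genes, counting either strand. Its carriers were Dnaic1 and Dnaic2, intermediate chains of the outer arm, Dynlrb2, a light chain, and Dnaaf2, an assembly factor. These 4 sequences are shown since the carriers differ widely in their response, and Dynlrb1 is shown as the paralog of Dynlrb2 that has no X-box in its window and was higher in the knockout. Each runs from base -60 to base -1 before the RefSeq gene start, with the X-box in capitals, read 5′ to 3′ along the gene: chr4:41569734-41569793 on the plus strand for Dnaic1, chr11:114727359-114727418 on the plus strand for Dnaic2, chr8:116504955-116505014 on the plus strand for Dynlrb2, chr12:69198430-69198489 on the minus strand for Dnaaf2 and chr2:155236473-155236532 on the plus strand for Dynlrb1.
Dnaic1: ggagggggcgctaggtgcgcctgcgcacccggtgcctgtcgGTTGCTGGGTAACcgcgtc
Dnaic2: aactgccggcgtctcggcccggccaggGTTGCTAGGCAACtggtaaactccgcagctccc
Dynlrb2: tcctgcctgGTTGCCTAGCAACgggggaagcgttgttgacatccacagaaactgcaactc
Dnaaf2: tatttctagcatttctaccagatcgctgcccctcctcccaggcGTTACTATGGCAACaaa
Dynlrb1: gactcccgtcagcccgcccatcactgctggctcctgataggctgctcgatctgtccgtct

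Knockout levels of the 4 carriers were 2.62% of control for Dnaic1, 0.369% for Dnaic2, 0.384% for Dynlrb2 and 35.2% for Dnaaf2. The log2 fold change was -6.04 for Dnaic2 and -1.05 for Dnaaf2, or 0.31 for Dnaaf2 after quantile normalization. Their X-box matches are not identical, with 13 bases in Dnaic2 and 14 in Dnaaf2. A part of the X-box in these changes was not tested. Genes with no X-box in their window went both ways. They included Dnali1 and Dnah6, with log2 fold changes of -7.25 and -5.21, and all 4 genes that were higher in the knockout. By class, the X-box was in 2 of 19 axonemal promoters (10.5%), 1 of 3 of assembly factors (33.3%) and 1 of 11 of cytoplasmic genes and light chains (9.09%). The single half-site GTTGCC, which overlaps the X-box in Dynlrb2, Dnaic2 and Dnaaf2, was in 12 of the 33 promoters (36.4%) and in 14.1% of all genes. It was in 5 of 19 axonemal promoters (26.3%) and in 5 of 11 promoters of cytoplasmic genes and light chains (45.5%). The motif TAACNG, bound by MYB proteins such as the meiotic regulator MYBL1, was in 15 of the 33 (45.5%) against 25.9% of all genes. By class it was in 10 of the 19 axonemal promoters (52.6%), 1 of 3 of assembly factors (33.3%) and 4 of 11 of cytoplasmic genes and light chains (36.4%). The motif TGACGT, part of the site of CREM, a regulator of haploid germ cells, was in 2 of the 33 (6.06%) and in 8.37% of all genes. Both of those were axonemal, Dnaic1 and Dnah6. A motif match is a description of these letters, not a measured binding site.

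The outer arm of a mammalian axoneme holds a pair of heavy chains. In sperm tails these are DNAH8 and DNAH17, and in airway cilia DNAH5 with DNAH9 or DNAH11. Dnah8 (ENSMUSG00000033826, chr17:30624354-30875264, plus strand) was at 193, 152 and 167 FPKM in control libraries and at 1.23, 1.40 and 1.43 FPKM in knockout libraries, the highest of the 15 axonemal heavy chains in either group. The knockout kept 0.791% of the control mean (log2 fold change -6.53 ± 0.113 (SE), limma adjusted p 1.7e-09), and its libraries lay far from the controls. Dnah17 (ENSMUSG00000033987, chr11:118021723-118130634, minus strand) was at 53.8, 42.8 and 46.8 FPKM in control libraries and at 0.203, 0.236 and 0.264 FPKM in knockout libraries, or 47.8 ± 5.59 FPKM in control libraries and 0.234 ± 0.0301 FPKM in knockout libraries (SD, n = 3). Again no library overlapped, and the knockout mean was 0.490% of control (log2 fold change -6.03 ± 0.122 (SE), limma adjusted p 3.0e-09).

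The heavy chains of airway cilia were near the bottom of the measured range in both groups. Dnah5 was at 0.784, 0.458 and 0.441 FPKM in control libraries and at 0.0532, 0.0379 and 0.0401 FPKM in knockout libraries. Its reads numbered 302 in the controls and 43 in the knockout, and after the library divisor of the deposited values the control over knockout ratio was 12.4 (exact 95% interval 8.98 to 17.5). Dnah9, at 0.787, 0.682 and 0.458 FPKM in control libraries and at 0.127, 0.0806 and 0.0727 FPKM in knockout libraries, had 359 and 94 reads and a ratio of 6.73 (exact 95% interval 5.35 to 8.54). Dnah11, at 0.420, 0.390 and 0.567 FPKM in control libraries and at 0.160, 0.0820 and 0.134 FPKM in knockout libraries, had 236 and 114 reads and a ratio of 3.65 (exact 95% interval 2.91 to 4.61). These intervals cover counting error alone. All 3 were thus also lower in the knockout without overlap, by smaller folds than the sperm forms. With no filter on low values their log2 fold changes were -0.95, -0.94 and -0.61 on the scale of FPKM + 0.5, with limma adjusted p of 0.0019, 0.0021 and 0.0067.

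Within single libraries, the outer arm heavy chains of sperm stood lower against their ciliary counterparts in the knockout than in the controls. The log2 ratio of Dnah8 over Dnah5, each as FPKM + 0.5, was 7.34 ± 0.12 in controls against 1.77 ± 0.11 in knockouts (SD, n = 3), with a difference of -5.58. With 0.1 FPKM added in place of 0.5 this difference was -4.71, and with nothing added -3.33. For Dnah17 over Dnah9 the ratio was 5.41 ± 0.22 in controls against 0.31 ± 0.13 in knockouts (SD, n = 3), with a difference of -5.10, and for Dnah17 over Dnah11 5.65 ± 0.21 in controls against 0.23 ± 0.13 in knockouts (SD, n = 3), with a difference of -5.42. No group overlapped in these ratios. Each of the 9 paralog ratios computed here had a 2-sided exact permutation p of 0.1, also after adjustment over the 9, which is the smallest that 3 against 3 libraries can give. The added 0.5 FPKM is close to the whole level of the ciliary forms, so these ratios mainly follow Dnah8 and Dnah17. Of outer arm heavy chain FPKM, the 3 ciliary forms together made up 0.801, 0.778 and 0.680% in control libraries and 19.2, 10.9 and 12.7% in knockout libraries.

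Inner arm heavy chains numbered 9, and all 9 were lower, with a median log2 fold change of -4.37. In the controls they lay close to one another: Dnah12 at 26.9 ± 3.17 FPKM was the highest and Dnah10 at 12.4 ± 1.60 FPKM the lowest (SD, n = 3). In the order of all 15 axonemal heavy chains by control mean, Dnah8 stood clear of Dnah17, Dnah17 of Dnah12, and Dnah10 of Dnah9. The other 11 neighbouring pairs overlapped between libraries, so the order among the inner arm genes, with Dnah14 placed between Dnah1 and Dnah2, is not resolved by these libraries.

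What remained in the knockout differed widely among them. Dnah3 was at 20.9, 17.1 and 14.2 FPKM in control libraries and at 0.0258, 0.0276 and 0 FPKM in knockout libraries, resting on 8698 reads in the controls and on 8, 8 and 0 reads in the knockout. The control over knockout ratio of its reads was 959 (exact 95% interval 589.9 to 1678). Dnah6 was at 23.2, 17.1 and 17.03 FPKM in control libraries and at 0.0279, 0.0298 and 0.0146 FPKM in knockout libraries, with 8841 reads against 20. Both encode single-headed inner arm heavy chains and kept 0.103% and 0.126% of the control mean (log2 fold change -5.09 ± 0.164 (SE), limma adjusted p 3.4e-08 for Dnah3; log2 fold change -5.21 ± 0.156 (SE), limma adjusted p 2.3e-08 for Dnah6). For Dnah3, 10.5% of exon bases are shared with Lyrm1 on the opposite strand, and the handling of strand by the counter is not given in the sources used here.

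Dnah2 and Dnah10 encode the pair of heavy chains of the f dynein, the one double-headed inner arm. Dnah2 was at 22.4, 17.8 and 20.8 FPKM in control libraries and at 1.17, 1.014 and 1.20 FPKM in knockout libraries (log2 fold change -3.67 ± 0.125 (SE), limma adjusted p 4.6e-08). Dnah10 was at 14.04, 10.8 and 12.3 FPKM in control libraries and at 0.666, 0.790 and 0.756 FPKM in knockout libraries (log2 fold change -3.38 ± 0.135 (SE), limma adjusted p 1.2e-07). Both kept more than the other inner arm genes, 5.55% and 5.95% of control, and their knockout libraries stayed well below every control. Dnah1, whose human counterpart is known from men with malformed sperm tails, was at 28.4, 22.9 and 23.1 FPKM in control libraries and at 0.602, 0.875 and 0.955 FPKM in knockout libraries and kept 3.27% (log2 fold change -4.27 ± 0.151 (SE), limma adjusted p 5.7e-08). Dnah12 was at 30.5, 24.5 and 25.8 FPKM in control libraries and at 0.223, 0.263 and 0.261 FPKM in knockout libraries and kept 0.927% (log2 fold change -5.19 ± 0.126 (SE), limma adjusted p 7.2e-09). No knockout library of either gene reached 1 FPKM, and their lowest control was at 22.9 FPKM.

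The 3 copies of Dnah7 lie on chromosome 1 and share long stretches of sequence: 38.6% of the 50-base words of Dnah7a, 29.9% of Dnah7b and 46.8% of Dnah7c also occur in other genes. Reads could therefore be split between them in an unknown way. Dnah7a was at 19.5, 16.7 and 17.3 FPKM in control libraries and at 0.250, 0.585 and 0.340 FPKM in knockout libraries, Dnah7b at 14.6, 12.9 and 12.0 FPKM in control libraries and at 0.550, 0.646 and 0.430 FPKM in knockout libraries and Dnah7c at 20.4, 17.8 and 16.9 FPKM in control libraries and at 0.216, 0.388 and 0.199 FPKM in knockout libraries. All 3 fell, with log2 fold changes of -4.37, -3.71 and -4.62 and limma adjusted p of 8.0e-08, 7.9e-08 and 3.1e-08. Dnah14, a heavy chain whose place in the arms was not assigned here, was at 26.6, 21.0 and 20.9 FPKM in control libraries and at 0.566, 0.712 and 0.637 FPKM in knockout libraries and kept 2.80% (log2 fold change -4.35 ± 0.135 (SE), limma adjusted p 2.7e-08).

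The make-up of the heavy chain transcripts differed between the groups along with their amount. Summed over the 15 axonemal heavy chains, the level was 469, 375 and 396 FPKM in control libraries and 6.07, 7.17 and 6.73 FPKM in knockout libraries. Their share of all dynein heavy chain FPKM, with Dync1h1 and Dync2h1, was 83.7, 82.9 and 82.6% in control libraries and 12.4, 13.5 and 11.5% in knockout libraries, and that of Dync1h1 was 12.4, 12.8 and 13.6% in control libraries and 76.9, 76.0 and 79.0% in knockout libraries. Within the axonemal sum, Dnah8 made up 41.1, 40.6 and 42.3% in control libraries and 20.2, 19.5 and 21.2% in knockout libraries. Dnah2 and Dnah10 together made up 7.77, 7.64 and 8.37% in control libraries and 30.3, 25.2 and 29.1% in knockout libraries. No share overlapped between the groups, and since a share is taken within a library, no scaling factor of a library alters it. By mean level the knockout order began with Dnah8, Dnah2, Dnah1 and Dnah10, where Dnah1 and Dnah10 overlapped.

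**Figure D2:**
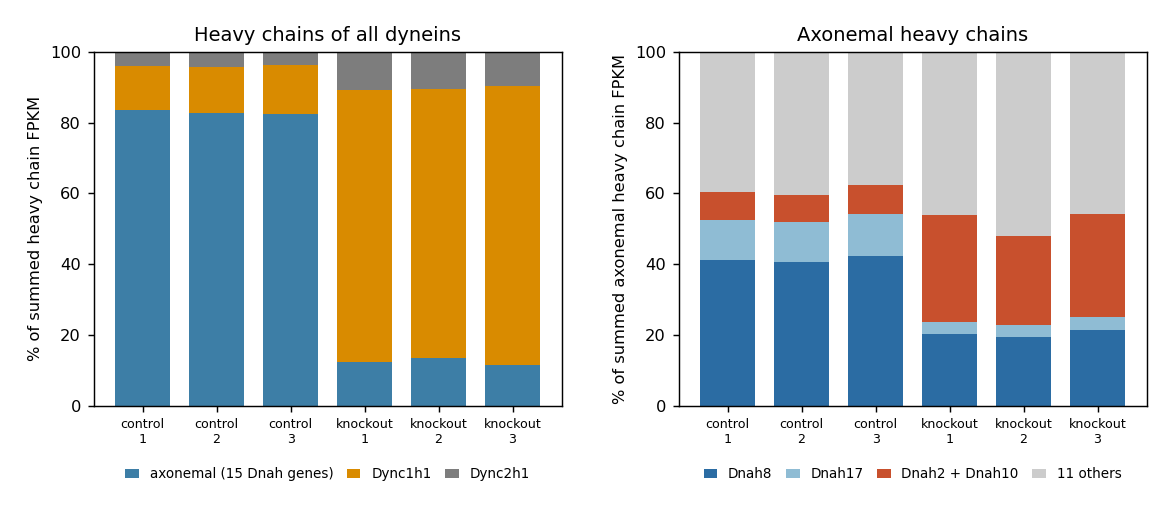
Percent of summed heavy chain FPKM in each of the 6 libraries, for all dyneins (left) and within the axonemal heavy chains (right). Axonemal heavy chains take 82.6% to 83.7% of all heavy chain FPKM in the controls and 11.5% to 13.5% in the knockout, and within them Dnah2 and Dnah10 take 7.64% to 8.37% and 25.2% to 30.3%.

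Intermediate chains sit at the base of the arm and fix it to the doublet. Dnaic1 was at 63.6, 52.6 and 60.2 FPKM in control libraries and at 1.31, 1.76 and 1.54 FPKM in knockout libraries (log2 fold change -4.86 ± 0.123 (SE), limma adjusted p 8.9e-09), and Dnaic2 at 48.6, 35.7 and 46.1 FPKM in control libraries and at 0.182, 0.151 and 0.148 FPKM in knockout libraries (log2 fold change -6.04 ± 0.141 (SE), limma adjusted p 5.9e-09). Both were far below every control, yet Dnaic2 kept 0.369% and Dnaic1 2.62% of the control mean. Both carry the X-box printed above.

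The light and light intermediate chains of the axoneme differed widely in how much the knockout kept. Dnali1 (ENSMUSG00000042707, chr4:125055338-125065703, minus strand), a light intermediate chain of inner arms, was at 149, 119 and 146 FPKM in control libraries and at 0.628, 0.463 and 0.181 FPKM in knockout libraries (log2 fold change -7.25 ± 0.193 (SE), limma adjusted p 1.2e-08). It kept 0.308% of control, on 10349 control and 57 knockout reads. Dnal4, an axonemal dynein light chain, was at 48.8, 41.6 and 50.9 FPKM in control libraries and at 6.07, 5.002 and 6.16 FPKM in knockout libraries and kept 12.2% (log2 fold change -2.93 ± 0.120 (SE), limma adjusted p 1.4e-07). Dnal1, a light chain that binds the motor domain of an outer arm heavy chain, was at 8.92, 6.76 and 6.75 FPKM in control libraries and at 3.20, 3.83 and 3.56 FPKM in knockout libraries and kept 47.2%. Its groups did not overlap on the deposited scale (log2 fold change -0.98 ± 0.142 (SE), limma adjusted p 2.7e-04), but the log2 fold change was 0.11 with FPKM rescaled, -0.14 with reads rescaled and -0.33 after quantile normalization, so its direction depends on the scaling.

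The 4 assembly factors were a pair that kept 0.876% and 2.46% of the control mean and a pair that kept 35.2% and 71.8%. Dnaaf1 (ENSMUSG00000031831, chr8:119575235-119598454, plus strand), a leucine-rich repeat protein needed for both arms, had the highest control FPKM of the 40 genes. It was at 489, 413 and 490.1 FPKM in control libraries and at 2.96, 4.34 and 4.90 FPKM in knockout libraries (log2 fold change -6.69 ± 0.169 (SE), limma adjusted p 8.7e-09). Opposite its exons, 20.7% of their bases, lies Taf1c, a gene outside the name rule noted after its values were seen, at 5.18 ± 0.712 FPKM in control libraries and 9.11 ± 0.365 FPKM in knockout libraries (SD, n = 3). Dnaaf3 was at 57.9, 44.3 and 43.7 FPKM in control libraries and at 1.35, 1.38 and 0.869 FPKM in knockout libraries (log2 fold change -4.86 ± 0.169 (SE), limma adjusted p 5.2e-08). Both genes fell without overlap of the groups.

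Dnaaf2, a PIH domain co-chaperone, was low in both groups, at 1.998, 1.82 and 2.04 FPKM in control libraries and at 0.709, 0.554 and 0.798 FPKM in knockout libraries (log2 fold change -1.05 ± 0.158 (SE), limma adjusted p 3.3e-04). Its log2 fold change was -0.29 with FPKM rescaled, -0.42 with reads rescaled and 0.31 after quantile normalization, and 32.6% of its exon bases overlap a transcript on the opposite strand. That transcript, 9330151L19Rik, was at 3.28 ± 0.188 FPKM in control libraries and 3.04 ± 0.477 FPKM in knockout libraries (SD, n = 3), above Dnaaf2 in both groups. On the same strand Gm49383 and Gm49384 cover 22.3% and 20.65% of its exon bases, and both were at 0 FPKM in every library. Dnaaf5, a HEAT repeat protein, was at 26.8, 24.3 and 27.2 FPKM in control libraries and at 17.3, 18.7 and 20.1 FPKM in knockout libraries, the highest of the 4 in the knockout. It fell on the deposited scale (log2 fold change -0.47 ± 0.0958 (SE), limma adjusted p 0.0019) and rose under the other scalings, with log2 fold changes of 0.70, 0.43 and 0.50. For both genes the groups stayed apart on the deposited scale, and neither has a direction that holds across the scalings.

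Cytoplasmic dynein 1 is built on a homodimer of the heavy chain Dync1h1. Dync1h1 (ENSMUSG00000018707, chr12:110601452-110666945, plus strand) was at 69.6, 58.1 and 65.2 FPKM in control libraries and at 37.6, 40.4 and 46.4 FPKM in knockout libraries (log2 fold change -0.63 ± 0.111 (SE), limma adjusted p 8.7e-04). The groups did not overlap, but the sign turned with the scaling, to 0.55 with FPKM rescaled, 0.28 with reads rescaled and 0.79 after quantile normalization. The intermediate chains, which bind dynactin, went apart. Dync1i1 was at 2.73, 2.39 and 2.98 FPKM in control libraries and at 5.52, 4.05 and 3.79 FPKM in knockout libraries (log2 fold change 0.62 ± 0.164 (SE), limma adjusted p 0.0076), and Dync1i2 at 37.1, 37.4 and 32.9 FPKM in control libraries and at 9.64, 11.5 and 9.53 FPKM in knockout libraries (log2 fold change -1.76 ± 0.108 (SE), limma adjusted p 1.6e-06). Dync1i1 was higher and Dync1i2 lower under each of the scalings run, with log2 fold changes of 1.81, 1.42 and 1.46 for Dync1i1 and -0.62, -0.87 and -0.88 for Dync1i2.

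The light intermediate chains, which bind the cargo adaptors, also differed from each other. Dync1li1 was at 3.65, 4.90 and 5.41 FPKM in control libraries and at 13.3, 16.95 and 15.7 FPKM in knockout libraries (log2 fold change 1.63 ± 0.160 (SE), limma adjusted p 2.6e-05), with each knockout library above each control. Dync1li2 was at 39.5, 33.1 and 38.9 FPKM in control libraries and at 17.8, 20.0 and 18.3 FPKM in knockout libraries (log2 fold change -0.97 ± 0.103 (SE), limma adjusted p 4.1e-05), although its log2 fold change was 0.20 with FPKM rescaled, -0.07 with reads rescaled and 0.08 after quantile normalization. As a share of the FPKM of both, Dync1li1 made up 8.47, 12.9 and 12.2% in control libraries and 42.8, 45.8 and 46.2% in knockout libraries. Of the intermediate chain FPKM, Dync1i1 made up 6.86, 5.998 and 8.30% in control libraries and 36.4, 26.0 and 28.4% in knockout libraries. The shares did not overlap between groups in either pair. The log2 ratio of Dync1li2 over Dync1li1 was 2.88 ± 0.34 in controls against 0.28 ± 0.11 in knockouts (SD, n = 3), with a difference of -2.60, and that of Dync1i1 over Dync1i2 -3.51 ± 0.23 in controls against -1.13 ± 0.34 in knockouts (SD, n = 3), with a difference of 2.38.

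Dynein 2, the motor of retrograde intraflagellar transport, was lower in the knockout in both of its named subunits. Its heavy chain Dync2h1 was at 21.8, 19.5 and 18.2 FPKM in control libraries and at 5.22, 5.59 and 5.62 FPKM in knockout libraries (log2 fold change -1.76 ± 0.103 (SE), limma adjusted p 1.2e-06), and its light intermediate chain Dync2li1 at 37.9, 34.2 and 33.0 FPKM in control libraries and at 6.25, 8.32 and 6.42 FPKM in knockout libraries (log2 fold change -2.25 ± 0.128 (SE), limma adjusted p 9.7e-07). Both fell under each scaling run, with log2 fold changes from -1.76 to -0.65 for Dync2h1 and from -2.25 to -1.13 for Dync2li1. They kept 27.6% and 20.0% of control, where the highest such value among the axonemal heavy chains tested was 5.95%. Other axonemal genes kept more than that. The heavy chains too low to be tested, Dnah5, Dnah9 and Dnah11, kept 7.80%, 14.6% and 27.3%, and the light chains Dnal4 and Dnal1 12.2% and 47.2%. The log2 ratio of Dync2h1 over Dync1h1 was -1.67 ± 0.13 in controls against -2.81 ± 0.11 in knockouts (SD, n = 3), with a difference of -1.14.

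Light chains of the LC8 family, Dynll1 and Dynll2, serve both cytoplasmic and axonemal dyneins and many other partners. Dynll1 was at 98.4, 99.3 and 94.8 FPKM in control libraries and at 39.0, 45.9 and 45.0 FPKM in knockout libraries (log2 fold change -1.17 ± 0.0910 (SE), limma adjusted p 6.6e-06), and Dynll2 at 81.9, 89.1 and 106 FPKM in control libraries and at 60.2, 54.0 and 55.2 FPKM in knockout libraries (log2 fold change -0.70 ± 0.112 (SE), limma adjusted p 5.0e-04). Both were lower without overlap as deposited, but Dynll1 turned to 0.01 and 0.35 with FPKM rescaled and after quantile normalization, and Dynll2 to 0.49, 0.22 and 0.86 under the 3 other scalings. The log2 ratio of Dynll2 over Dynll1, which no library factor alters apart from the pseudocount, was -0.09 ± 0.22 in controls against 0.38 ± 0.21 in knockouts (SD, n = 3), with a difference of 0.47.

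The roadblock family gave the widest contrast between paralogs. Dynlrb2 (ENSMUSG00000034467, chr8:116504974-116515915, plus strand), known from ciliated tissues and testis, was at 159.6, 127 and 147 FPKM in control libraries and at 0.0831, 0.800 and 0.782 FPKM in knockout libraries. These values rest on 2827 control and 19 knockout reads, and the gene kept 0.384% of control (log2 fold change -7.19 ± 0.298 (SE), limma adjusted p 1.4e-07), a log2 fold change within the range of the axonemal genes. Dynlrb1 (ENSMUSG00000047459, chr2:155236533-155250277, plus strand), the paralog used by most cells, was at 10.9, 15.2 and 16.97 FPKM in control libraries and at 49.5, 49.9 and 43.5 FPKM in knockout libraries (log2 fold change 1.72 ± 0.162 (SE), limma adjusted p 2.1e-05), higher in each knockout library than in any control. Of the FPKM of the pair, Dynlrb2 made up 93.6, 89.3 and 89.7% in control libraries and 0.168, 1.58 and 1.77% in knockout libraries. The log2 ratio of Dynlrb2 over Dynlrb1 was 3.30 ± 0.44 in controls against -5.60 ± 0.72 in knockouts (SD, n = 3), with a difference of -8.90, the greatest in size of the 9 pairs.

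The Tctex family has 4 closely similar copies of Dynlt1 on chromosome 17, between base 6306340 and base 6655900, which share 63.0% to 88.6% of their 50-base words with other genes. Dynlt1a was at 14.5 ± 0.669 FPKM in control libraries and 0.781 ± 0.188 FPKM in knockout libraries (SD, n = 3), Dynlt1b at 113 ± 13.1 FPKM in control libraries and 10.6 ± 1.504 FPKM in knockout libraries (SD, n = 3), Dynlt1c at 10.6 ± 0.779 FPKM in control libraries and 2.12 ± 1.015 FPKM in knockout libraries (SD, n = 3) and Dynlt1f at 38.8 ± 2.22 FPKM in control libraries and 4.22 ± 0.824 FPKM in knockout libraries (SD, n = 3). All 4 fell under each scaling run, with log2 fold changes as deposited of -3.56, -3.35, -2.17 and -3.07 and limma adjusted p of at most 1.6e-04. How reads were shared among the copies is not given in the sources used here. A processed pseudogene of Dynlt1 on chromosome 6, Dynlt1-ps1, named after its values were seen, was at 1000.0, 848 and 784 FPKM in control libraries and at 57.0, 74.3 and 63.3 FPKM in knockout libraries and so above the sum of the 4 genes in each library. It fell too (log2 fold change -3.75, limma adjusted p 6.0e-08).

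Dynlt3, the X-linked member of the family, was at 5.53, 7.12 and 6.24 FPKM in control libraries and at 13.99, 12.8 and 10.5 FPKM in knockout libraries (log2 fold change 0.92 ± 0.142 (SE), limma adjusted p 3.8e-04), higher in each knockout library. Its share of the family's FPKM, pseudogene left out, was 3.03, 4.23 and 3.16% in control libraries and 40.9, 42.6 and 40.0% in knockout libraries. The log2 ratio of Dynlt3 over the summed Dynlt1 copies was -4.71 ± 0.26 in controls against -0.50 ± 0.07 in knockouts (SD, n = 3), with a difference of 4.21, and the difference was 4.59 with the pseudogene counted in, an alternative chosen after seeing the data. All 4 genes that were higher on the deposited scale, Dync1i1, Dync1li1, Dynlrb1 and Dynlt3, belong to the cytoplasmic families, and each was also higher under the other scalings.

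**Figure D3:**
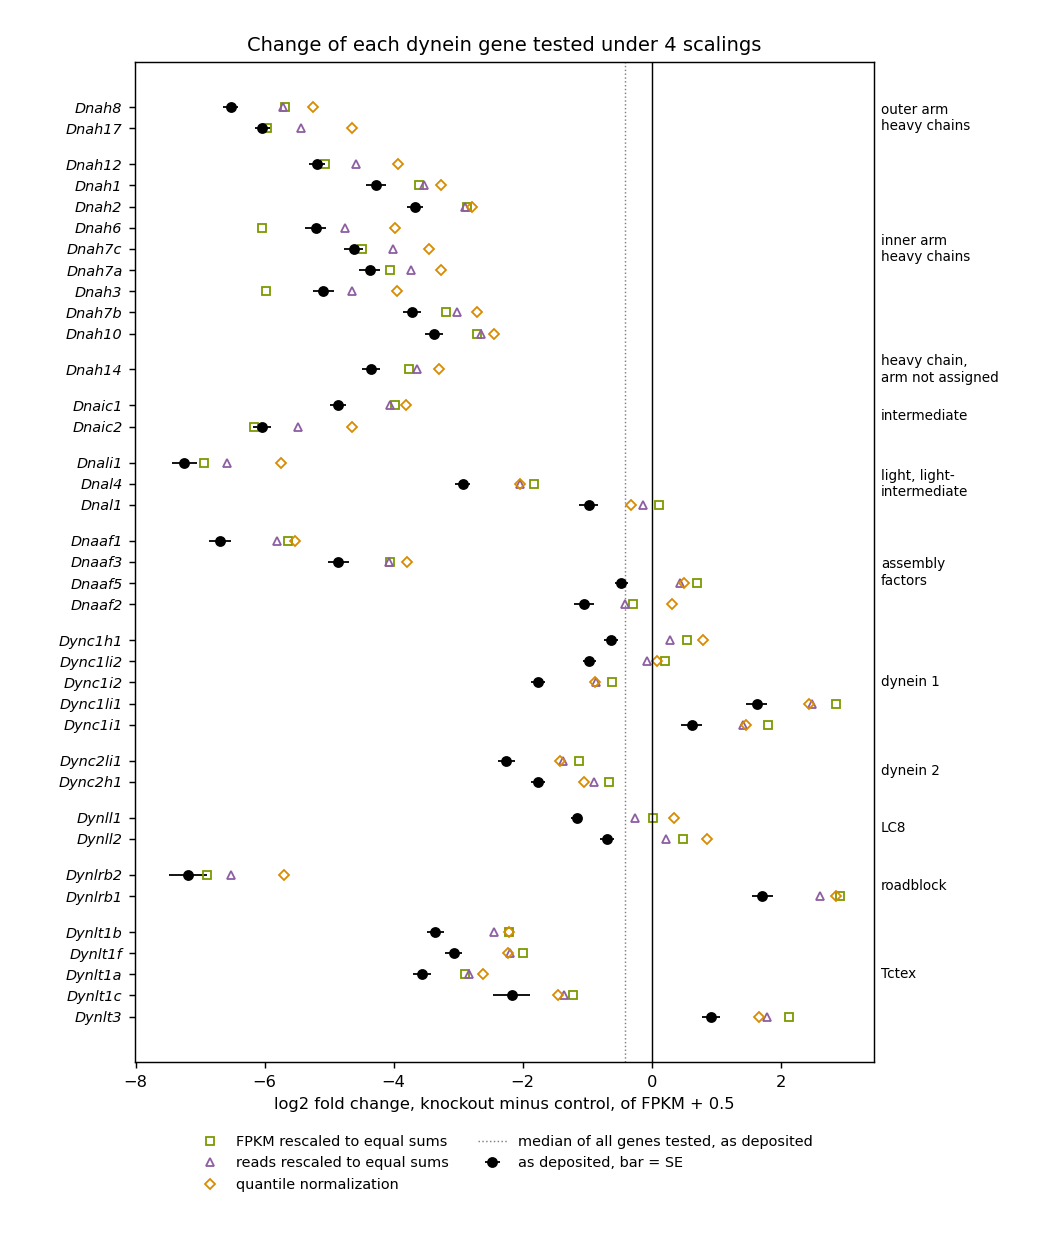
Log2 fold change (knockout minus control, FPKM + 0.5) of the 37 dynein genes tested, as deposited with its SE (black) and under 3 other scalings (open symbols), with a dotted line at the median of all genes, -0.41. Axonemal genes other than Dnal1 lie at -2.93 or below as deposited. Dnal1, Dnaaf2, Dnaaf5, Dync1h1, Dync1li2, Dynll1 and Dynll2 lie between -1.17 and -0.47 as deposited and cross 0 under another scaling.

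**Figure D4:**
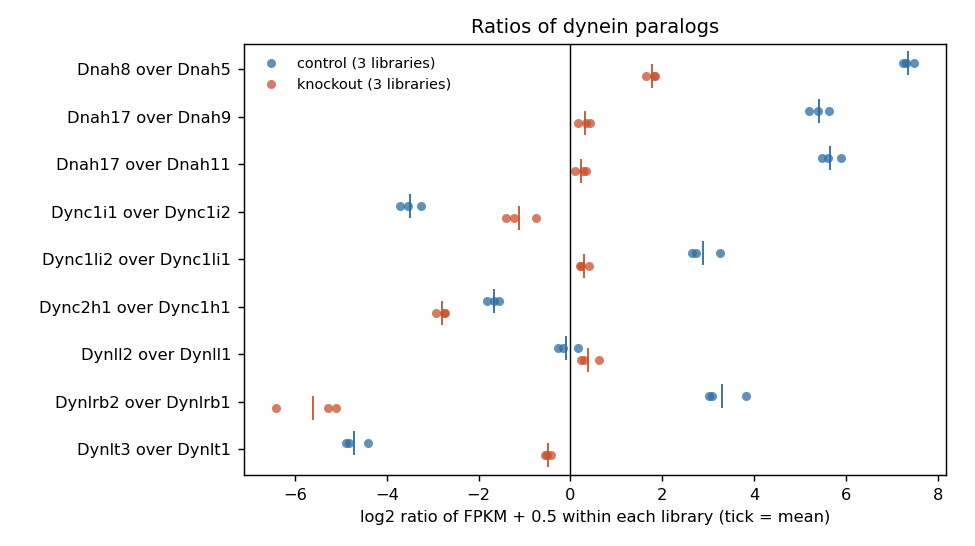
Log2 ratio of paralogs (each FPKM + 0.5) within each of the 3 control (blue) and 3 knockout (red) libraries, with a tick at each group mean. No pair overlaps between the groups: the ratio of Dynlrb2 over Dynlrb1 differs most, by -8.90, and that of Dynll2 over Dynll1 least, by 0.47.

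Genes that work with the axonemal dyneins, and some subunits of dynein 2, carry other symbols and fell as well. The lists were drawn up with earlier results of these data known. The outer arm docking complex anchors the arm to the doublet. Its 6 genes were all lower, with a median log2 fold change of -5.30, and all 6 were lower under each scaling run. All but Ccdc114 averaged under 1 FPKM in the knockout and so passed the level tested through their control values. Armc4 was at 30.6 ± 3.61 against 0.0326 ± 0.0222 FPKM (SD, n = 3; log2 fold change -5.86, limma adjusted p 4.6e-09) and Ttc25 at 52.1 ± 5.93 against 0.549 ± 0.0967 FPKM (SD, n = 3; log2 fold change -5.64, limma adjusted p 4.9e-09). Dynein subunits without a dynein symbol include the intermediate chains WDR63 and WDR78. Also among them are Wdr60, Wdr34 and Tctex1d2, which belong to dynein 2, with log2 fold changes of -2.86, -1.27 and -2.91. Of the 9, 8 were tested and 8 were lower, with a median of -4.55. With FPKM rescaled 7 were lower, against 36.2% of all genes. Wdr63, Wdr78, Nme8, Tctex1d1 and Tcte3 averaged under 1 FPKM in the knockout and so passed the level tested through their control values. Nme8, an outer arm intermediate chain with a thioredoxin domain, was at 119 ± 19.8 against 0.0378 ± 0.0381 FPKM (SD, n = 3; log2 fold change -7.79, limma adjusted p 1.9e-09), and Tctex1d1, a Tctex-type light chain, at 18.7 ± 1.88 against 0.0331 ± 0.0169 FPKM (SD, n = 3; log2 fold change -5.17, limma adjusted p 8.9e-09). As background, 50.4% of all genes were lower and their median was -0.41.

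Assembly factors with other symbols held 15 genes tested, of which 13 were lower, 1 higher and 1 not called, with a median log2 fold change of -3.13. The shares over all genes were 50.4% lower and 36.2% higher. Daw1, Ccdc103 and Pih1d3 averaged under 1 FPKM in the knockout and so passed the level tested through their control values. Daw1, a WD repeat protein that helps outer arms enter the axoneme, was at 25.5 ± 1.43 against 0.0532 ± 0.0539 FPKM (SD, n = 3; log2 fold change -5.56, limma adjusted p 5.6e-09). Lrrc6, a leucine-rich repeat assembly factor, was at 102 ± 18.2 against 1.35 ± 0.247 FPKM (SD, n = 3; log2 fold change -5.78, limma adjusted p 1.3e-08). The higher one was Ruvbl1, an ATPase of a general chaperone complex, at 23.0 ± 1.99 against 27.1 ± 1.21 FPKM (SD, n = 3; log2 fold change 0.23, limma adjusted p 0.047), a call that was lost under 9 of the 19 alternatives, among them leaving out control library 1 or 2 or any 1 of the knockout libraries, where the adjusted p ran from 0.0751 to 0.154. Dyx1c1 had no reads in the knockout and was too low in the controls to be tested.

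Partners of cytoplasmic dynein were mixed. Dynactin, the complex that dynein 1 needs for long runs, had 8 of 12 genes lower, 1 higher and 3 not called, with a median of -1.52. Among all genes 50.4% were lower and 36.2% higher. With FPKM rescaled 7 dynactin genes were lower and 5 higher, against 36.2% and 54.2% of all genes. Capza1 and Capza2 encode alternative alpha subunits of the capping protein at the end of the dynactin filament. Capza1 was at 79.9 ± 6.29 against 9.23 ± 1.11 FPKM (SD, n = 3; log2 fold change -3.05, limma adjusted p 6.8e-08), while Capza2 was at 9.77 ± 0.264 against 19.4 ± 1.25 FPKM (SD, n = 3; log2 fold change 0.96, limma adjusted p 2.2e-05). Dctn2, the dynamitin subunit, was at 88.9 ± 7.06 against 13.7 ± 1.09 FPKM (SD, n = 3; log2 fold change -2.65, limma adjusted p 8.0e-08).

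Regulators and adaptors of cytoplasmic dynein were the one list with more genes higher than lower. Of 16 tested, 9 were higher (against 36.2% of all genes), 4 lower (against 50.4%) and 3 not called, with a median of 0.62. With FPKM rescaled 12 were higher and 3 lower, against 54.2% higher and 36.2% lower of all genes. Numa1, which tethers dynein at spindle poles, was at 10.1 ± 0.924 against 29.7 ± 2.59 FPKM (SD, n = 3; log2 fold change 1.51, limma adjusted p 3.9e-06), and Trak2, a mitochondrial adaptor, at 2.10 ± 0.309 against 8.30 ± 0.413 FPKM (SD, n = 3; log2 fold change 1.77, limma adjusted p 4.4e-06). Hook1, a cargo adaptor needed for the manchette of elongating spermatids, was at 102 ± 10.1 against 20.6 ± 1.14 FPKM (SD, n = 3; log2 fold change -2.28, limma adjusted p 2.0e-07), and Hook2 at 26.5 ± 6.33 against 2.96 ± 0.733 FPKM (SD, n = 3; log2 fold change -2.96, limma adjusted p 3.8e-06).

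Among transcription factors known to act on ciliary or germ cell genes, 10 of 11 tested were lower and 1 higher, with a median of -3.14. For all genes the shares were 50.4% and 36.2%. Foxj1 and Rfx4 averaged under 1 FPKM in the knockout and so passed the level tested through their control values. Foxj1, a master factor of motile cilia, was at 44.9 ± 7.55 against 0.463 ± 0.0183 FPKM (SD, n = 3; log2 fold change -5.55, limma adjusted p 8.0e-09). Rfx4, a factor of the family that binds the X-box, was at 27.8 ± 1.16 against 0.177 ± 0.0579 FPKM (SD, n = 3; log2 fold change -5.39, limma adjusted p 4.6e-09). Rfx2, Rfx1, Rfx3 and Rfx5 of this family were lower too, with log2 fold changes of -4.64, -2.16, -1.52 and -0.41, although Rfx5 turned to 0.68 with FPKM rescaled. The higher one was Rfx7 of the same family, at 2.51 ± 0.331 against 5.72 ± 0.392 FPKM (SD, n = 3; log2 fold change 1.05, limma adjusted p 1.1e-04). With FPKM rescaled the list had 8 lower and 2 higher.

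Other cell types that could carry dynein transcripts were checked beside these results. Markers of multiciliated epithelium, cells that line the ducts leaving the testis and use the same axonemal genes, summed to 190.4 to 232 FPKM in control libraries and 48.6 to 49.6 FPKM in knockout libraries, and 3 of 5 tested were lower and 2 higher. Deup1, a centriole amplification gene, made up most of the control sum, at 152, 127 and 125 FPKM, and was at no more than 0.269 FPKM in the knockout. Foxj1, given above, was lower too. The 2 higher ones were Epcam, at 21.8 ± 2.39 against 44.1 ± 1.30 FPKM, and Ccno, at 1.77 ± 0.0514 against 3.71 ± 0.951 FPKM (SD, n = 3). Epcam made up most of the knockout sum. Mcidas, which defines multiciliated cells, was at 0 in 2 of the 3 control libraries and at no more than 0.229 FPKM in any library. Photoreceptor markers, checked because of the retina in the extraction protocol, summed to 1.90 to 2.05 FPKM in control libraries and 0.631 to 0.913 FPKM in knockout libraries, with 0 of 7 at a level to be tested and Crx at 0 in all 6 libraries. Leydig cell markers summed to 84.8 to 141 FPKM in control libraries and 14.2 to 66.2 FPKM in knockout libraries, with 3 of 5 lower and 1 higher, and macrophage markers to 19.3 to 30.9 FPKM in control libraries and 34.4 to 97.6 FPKM in knockout libraries, with 3 of 5 higher and 0 lower. Leydig markers became 1 lower and 1 higher with FPKM rescaled, and 2 and 1 with reads rescaled and after quantile normalization. Macrophage markers became 5, 4 and 5 higher, with 0 lower, under these 3 scalings. Beside the multiciliated, Leydig and macrophage counts, 50.4% of all genes tested were lower and 36.2% higher as deposited. With FPKM rescaled these shares were 36.2% and 54.2%. The part of these cell types in the dynein results was not tested.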

How the data were processed

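RNA was sequenced from 3 control and 3 knockout libraries, grouped and numbered by the sample titles. The libraries were made with an Illumina TruSeq kit, per the labels' protocols. The submitters' processing notes name HISAT2 2.0.5, an aligner, and the mouse build mm10. Which counter and annotation were used, and how strand and multiply mapped reads were handled, is not given in the sources used here. The authors deposited FPKM per gene for 54532 genes. Multiplied by gene length, 100% of the nonzero values came out as whole reads within 0.01 read, and the reads behind each value were recovered that way. The divisor behind the deposited FPKM was a median-of-ratios size factor times the geometric mean of the library totals, 0.691 to 0.774 times a control library's own total and 1.37 to 1.42 times that of a knockout library.

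The 16791 genes that averaged 1 FPKM or more were tested in R 4.3.3 with limma 3.58.1. A gene of any list, marker lists included, that averaged under 1 FPKM in a group passed that level through the other group. Values entered as log2(FPKM + 0.5), differences are knockout minus control, and the fit used a mean-variance trend, Benjamini-Hochberg adjustment over all genes tested and a threshold of 0.05. Fold changes are on that log2 scale, which understates the change of low genes; percentages of control are ratios of mean FPKM. The fit was tested on simulated data. Paralog ratios were compared by an exact 2-sided permutation test (Python 3.11.15, scipy 1.17.1). Read ratios have exact 95% intervals, for counting error only; where a group had 0 reads the limit is 3 reads over the group. Coordinates are mm10, 1-based, as deposited; promoters are RefSeq, GRCm38.p6. Of the 40 genes, 38 had the same coordinates in GENCODE M21 (not Dnah8 and Dync2li1).

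The genes, gene lists, marker lists and paralog pairs were chosen with earlier results of these data known. Each gene of the name rule could be named, and from each other list up to 2 genes lower and 2 higher with the smallest p. Named outside that rule were, among others, Mcidas, Crx, Dyx1c1, Rfx1, Rfx2, Rfx3 and Rfx5. Alternatives were other pseudocounts, filters and scalings, fits without the trend, with array weights or with a replicate block, the protein-coding genes by themselves, voom on recovered reads, and leaving out each library. No table columns were left out.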

Additional observations from a re-analysis of the deposited data

How the results depend on the processing

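Of the 37 dynein genes tested, 30 kept their direction and their call under each of the 19 alternatives that could be computed for them, among them 16 of the 17 axonemal genes, 2 of the 4 assembly factors and 12 of the 16 cytoplasmic genes and light chains. Leaving out the trend or adding the replicate block can change a call but not a direction. The exceptions all came with another scaling. With FPKM rescaled to equal sums the log2 fold change was 0.11 for Dnal1, 0.70 for Dnaaf5, 0.014 for Dynll1, 0.49 for Dynll2, 0.55 for Dync1h1 and 0.20 for Dync1li2. With reads rescaled it was 0.43 for Dnaaf5, 0.22 for Dynll2 and 0.28 for Dync1h1, and after quantile normalization 0.31 for Dnaaf2, 0.50 for Dnaaf5, 0.35 for Dynll1, 0.86 for Dynll2, 0.79 for Dync1h1 and 0.079 for Dync1li2. Without a change of sign, the call was lost for Dnal1 (-0.14) and Dync1li2 (-0.07) with reads rescaled and for Dnaaf2 (-0.29) with FPKM rescaled. The number of assembly factors called lower became 2 with FPKM rescaled and after quantile normalization, and 1 was called higher under each of the 3 scalings. Of cytoplasmic genes and light chains, 7 were called higher after quantile normalization. Of the other genes of the dynein pathway, against 12 as deposited, 21 were called higher with FPKM rescaled, 20 with reads rescaled and 21 after quantile normalization. A filter at 5 FPKM, which tests fewer genes, called 5320 genes lower and 3227 higher, and no filter 12226 and 8057. Limma's voom on the recovered reads called 8448 lower and 6003 higher.

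Leaving out each library in turn called 8270 to 8373 genes lower and 5749 to 5934 higher. The counts of dynein genes stayed at 17 lower and 0 higher (axonemal), 4 and 0 (assembly) and 12 and 4 (cytoplasmic and light chains), and those of the other pathway genes at 48 to 49 lower and 10 to 13 higher. The paralog ratio differences ranged from -5.63 to -5.51 for Dnah8 over Dnah5, -5.21 to -4.99 for Dnah17 over Dnah9, -5.51 to -5.30 for Dnah17 over Dnah11, 2.19 to 2.52 for Dync1i1 over Dync1i2, -2.72 to -2.40 for Dync1li2 over Dync1li1, -1.21 to -1.07 for Dync2h1 over Dync1h1, 0.35 to 0.59 for Dynll2 over Dynll1, -9.15 to -8.49 for Dynlrb2 over Dynlrb1 and 4.12 to 4.36 for Dynlt3 over Dynlt1. With 0.1 FPKM, 1 FPKM or nothing added, Dnah8 over Dnah5 was -4.71, -5.61 and -3.33, and the 8 other ratios kept their direction and moved by less than 1.5 times.

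Same-numbered control and knockout libraries did not deviate together (correlations of their deviations from the group means of -0.12, -0.05 and -0.04), so the numbers were not read as pairs. With the replicate number as a block, 8364 genes were lower and 5930 higher, and the counts of dynein genes stayed at 17, 4 and 12 lower and 4 higher. In this balanced design the block cannot alter a difference of group means, so the paralog ratio differences are the same by construction. The smallest exact p from sign flips of 3 pairs is 0.25.

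Depth limits Dnah5, Dnah9 and Dnah11 in both groups, and Dnah3, Dnah6 and Dynlrb2 in the knockout, where 16 to 20 reads stand behind each. With 3 libraries a group, exact tests of ratios cannot pass 0.05.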
